A study of Mus musculus with 8 samples.

Results

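The genes described here encode proteins that hepatocytes secrete into the plasma, together with the complement receptor C5ar1. They were chosen by name, 59 genes in all, and were sorted by role into 9 carrier proteins, 16 acute phase proteins and inhibitors, 19 coagulation and fibrinolysis proteins and 15 complement proteins. Of these 59 genes, 52 carried at least 1 peak in the m6A RNA immunoprecipitation sequencing (m6A-RIP-seq) lists of mouse liver, out of 11558 genes with a peak in either genotype. The study compared livers of C57BL/6 Wtap flox/flox mice, the controls, with livers of Wtap-HKO mice, which carry Wtap flox/flox and Alb-Cre. All mice were 8 weeks old and ate normal chow. Each genotype had 2 immunoprecipitated (IP) and 2 input libraries of poly(A)+ RNA, each from a pool of several mice, and the deposited lists combine the replicates of a genotype into 1 list. Both genotypes carry the floxed alleles, so the groups differ in Cre. The albumin promoter drives Cre in hepatocytes, the cells that the deletion targets. Wtap in the separate cell types of the liver was not measured here.

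WTAP is the regulatory subunit of the complex in which METTL3 and METTL14 methylate internal adenosines of messenger RNA. The mark, m6A, lies mostly near stop codons and in 3′ untranslated regions, and reader proteins that bind it act on the splicing, translation and decay of the RNA. Antibodies to m6A also bind m6Am, a methylated adenosine that can stand at the first transcribed base next to the cap and that another enzyme, PCIF1, makes. Peaks of both kinds enter the same list. The transcripts of plasma proteins are among the most abundant in the hepatocyte, because the liver supplies albumin and other carriers, the clotting factors and most of the complement in blood.

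The value given for each peak is its fold enrichment, IP reads over input reads as the authors' peak caller reported it, and the lists hold no separate measure of transcript level. With 1 combined list per genotype there was no replicate error and no test, and each difference below is a description of 2 lists. Read depth behind a single peak is unknown from these files. Over the whole series, 15635 peaks of 9020 genes were listed for Wtap flox/flox and 19185 peaks of 10634 genes for Wtap-HKO. The targeted gene had 3 peaks in each list, at 8.06, 20.7 and 8.78 in Wtap flox/flox and at 4.47, 20.5 and 20.6 in Wtap-HKO, from the 3′ side to the 5′ side, and an enrichment over input does not measure how much Wtap RNA was left. Of 8 hepatocyte markers, 6 had a peak in controls and 7 in Wtap-HKO. Of 8 Kupffer cell and leukocyte markers, 4 had a peak in controls and 7 in Wtap-HKO, and for 5 stellate cell markers the counts were 3 and 5. Peaks were listed for 4 of 5 endothelial markers in each genotype, and for 1 of 4 cholangiocyte markers in controls and 2 in Wtap-HKO. The part of these other cells in the results was not tested. In bulk liver, fewer cells of a type and less RNA per cell cannot be told apart.

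Because the peaks of these genes are followed from 1 end of the gene to the other, the starts where Wtap-HKO peaks lay are shown first. A peak was counted at the 5′ or the 3′ end where its edge lay within 200 nt of that end of the gene span in RefSeq, and otherwise as lying between the ends. RefSeq starts on GRCm38.p6 were given for 46 of the 59 genes. The windows run from 10 bases before the start through the first 20 transcribed bases, with the first transcribed base in capitals. The first set holds examples, not all, of the genes whose 5′ peak was found in both genotypes with a higher enrichment in Wtap-HKO. They are the fibrinogen chains Fga (chr3:83026143-83026172, plus strand) and Fgg (chr3:83007714-83007743, plus strand), the clotting cofactor F5 (chr1:164151825-164151854, plus strand), Itih4 (chr14:30886466-30886495, plus strand) and albumin (chr5:90460860-90460889, plus strand).
Fga: ctgtgagtgcAgtcagtcctccttcgcttc
Fgg: ggaatccctcAgagcacgagtgagagccag
F5: ttagacagccAccacaggggacagggacac
Itih4: ttgccagtttAtaacccacctgctccaggg
Alb: ttaaagaagtAtattagagcgagtctttct
The second set holds examples, not all, of the genes whose 5′ peak was listed in Wtap-HKO and not in Wtap flox/flox. They are C9 (chr15:6445336-6445365, plus strand), prothrombin F2 (chr2:91636438-91636467, minus strand), F11 (chr8:45262012-45262041, minus strand), Orm2 (chr4:63362439-63362468, plus strand) and Saa4 (chr7:46732584-46732613, minus strand).
C9: gccccttgtcCtccggctgcaaaggaatgc
F2: tcttcacatcGgttcaatattaacccagag
F11: acagtgttccAtaccggctcacgtagaaaa
Orm2: tccaccagttAtctcttccaagccctggtg
Saa4: cactcttctcAttaatgttaaagccaggag
The last set holds starts inside the gene span at which a peak of both genotypes began, in Fetub (chr16:22920212-22920241, plus strand) and F7 (chr8:13026024-13026053, plus strand).
Fetub: cccttgggacTtaatctctgtaaaggcgcc
F7: ctggacagtcAccagccagaagccacagtc
The peaks of Fetub and F7 started exactly at these starts, 0 nt away. They are therefore counted as between the ends although they lay at a RefSeq start. The peak of Ambp covered its 5′ end in both genotypes, but its nearest edge lay 217 nt away in controls and 627 nt away in Wtap-HKO. It is likewise counted as between the ends.

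The first transcribed base in RefSeq was A for 12 of the 22 genes with both a 5′ peak in Wtap-HKO and a start in the table (54.5%). It was A for 25 of all 46 plasma protein genes with a start (54.3%) and for 34.4% of 32851 starts of all genes. The share in genes with a 5′ peak was thus that of the whole group. Every start shown in the first set above was A, but those are examples. Among genes of that kind not shown, the first base was G in Apcs, Pros1, F13b, Vtn and Rbp4 and T in Mbl1. It was A in C8b, F9, Serpinc1 and Crp. F10, which is not shown in the second set, had G. Within the first 50 transcribed bases, on the transcribed strand, GGACT stood in 1 of the 22 genes (4.55%) and in 5.76% of all starts. GAACT stood in 1 of 22 genes against 4.40% of all starts, AGACT in 2 of 22 against 5.14%, and GGAC, which GGACT contains, in 5 of 22 (22.7%) against 18.9%. These counts describe letters in the window, and the bases that are methylated were not measured.

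Most of the plasma protein genes kept a peak in both genotypes. A peak was listed for 44 of the 59 genes in controls and for 48 in Wtap-HKO, and 40 had a peak in both. Only in Wtap flox/flox were peaks of Saa1, Fgb, C2 and Mbl2 listed, 4 of the 52 genes with a peak (7.69%), against 7.99% of all genes with a peak. Only in Wtap-HKO were peaks of Ttr, Orm2, Saa2, F2, C9, C4b, Cfb and Cfi listed, 8 of 52 (15.4%), against 22.0% of all genes. These shares were near or below those of all genes. No peak was listed in either genotype for hemopexin (Hpx), the vitamin D binding protein (Gc), Serpina1a, Itih2, Itih3, F12 and C6.

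The enrichment of their peaks was lower than that of all peaks, and a larger share of them had an edge within 200 nt of an end of the gene. The median fold enrichment of the 72 peaks in Wtap flox/flox was 3.52, against 5.51 for all peaks, and that of the 75 peaks in Wtap-HKO was 4.34, against 5.93. In Wtap flox/flox, 19 of 72 peaks lay at the 5′ end (26.4%, 95% Wilson interval 17.6 to 37.6, against 10.7% of all placed peaks) and 17 at the 3′ end (23.6%, interval 15.3 to 34.6, against 10.1%). In Wtap-HKO, 30 of 75 peaks lay at the 5′ end (40%, interval 29.7 to 51.3, against 18.1%) and 8 at the 3′ end (10.7%, interval 5.50 to 19.7, against 8.29%). The 3′ comparison turned with the definition of the end. By a midpoint in the final 10% of the span, the shares were 36.1% against 42.4% of all peaks in controls and 21.3% against 35.8% in Wtap-HKO, both below those of all peaks. By the 200 nt rule and by the midpoint, both this group and all peaks had a higher 5′ share and a lower 3′ share in Wtap-HKO. The intervals cover counting error only. The gene spans were shorter than usual, with a median of 11551 nt over the 52 genes against 23922 nt over 9978 placed genes. Among peaks on spans over 5000 nt, the shares within 200 nt of the 5′ end were 26.7% against 9.65% of all peaks in controls and 36.5% against 16.6% in Wtap-HKO, and those at the 3′ end were 21.7% against 8.63% and 11.1% against 7.18%. The part of span length beyond this limit was not tested.

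**Figure D1:**
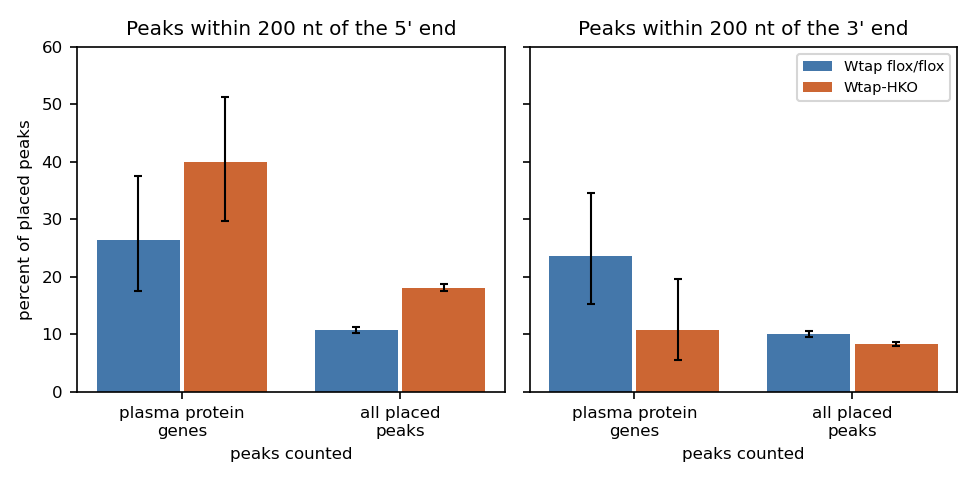
Percent of placed peaks (vertical axis) with an edge within 200 nt of the 5′ end (left) or the 3′ end (right) of the gene, for the plasma protein genes and for all placed peaks, in Wtap flox/flox and Wtap-HKO. Bars start at 0 and error bars are 95% Wilson intervals for counting error. For the plasma protein genes the 5′ share was 26.4% in controls and 40% in Wtap-HKO, and the 3′ share was 23.6% and 10.7%.

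Among the peaks at an end, those without an overlapping peak lay at the 3′ end in controls and at the 5′ end in Wtap-HKO. Peaks between the ends were also lost and gained. Of the 72 peaks in Wtap flox/flox, 18 shared no exonic base with a peak in Wtap-HKO (25%), against 19.9% of all peaks. Of the 75 peaks in Wtap-HKO, 17 shared none with Wtap flox/flox, against 35.3% of all peaks. Between the ends, 26 of 36 peaks in Wtap flox/flox were shared (72.2%), against 79.6% of all such peaks. In Wtap-HKO 29 of 37 peaks between the ends were shared (78.4%), against 68.2%. All 19 of the 5′ peaks in Wtap flox/flox overlapped a peak in Wtap-HKO, and over all genes 7.35% of such 5′ peaks did not. Of the 17 3′ peaks 8 did not (47.1%), against 22.0% of all 3′ peaks. The 8 unshared 3′ peaks were those of Itih4 at 6.22, Apcs at 4.27, F10 at 1.99, the second 3′ peak of Serpina3k at 1.99, C2 at 1.92, Saa4 at 1.86, Saa1 at 1.74 and Fgb at 1.73 fold enrichment. All of them but Itih4 and Apcs were below 2. The Itih4 peak lay wholly past the RefSeq span, with its nearest edge 67 nt beyond the 3′ end. The Apcs peak covered 530 nt of a span of 1094 nt, and its midpoint lay at 59.7% of that span.

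At the 5′ end the direction was opposite. All 8 of the 3′ peaks in Wtap-HKO overlapped a peak in Wtap flox/flox, and over all genes 22.4% of such 3′ peaks did not. Of its 30 5′ peaks 9 did not (30%). That share was below the 52.2% of all 5′ peaks in Wtap-HKO. The 9 were C9 at 8.72, F11 at 6.13, F10 at 5.76, Cfi at 5.32, Cfb at 4.59, Orm2 at 4.27, Saa4 at 3.74, Hp at 3.05 and F2 at 2.75 fold enrichment. The genes F10 and Saa4 were in both sets, with a 3′ peak in Wtap flox/flox only and a 5′ peak in Wtap-HKO only.

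For 49 peaks, exactly 1 peak of each genotype overlapped, and their ratio of enrichment could be given. The log2 ratio of Wtap-HKO over Wtap flox/flox is stated relative to the median of all 10499 such peaks, whose raw value was 0.01. A pair was placed at an end where either of its peaks lay there. Crp (0.80) and Serping1 (0.54) were at the 5′ end through the Wtap-HKO peak only. The last pair of Fga (-0.996) was at the 3′ end through the Wtap flox/flox peak only. The 20 pairs at the 5′ end had a median log2 ratio of 0.79, and 19 of them were above 0, the exception being Serpina3n at -0.15. The 9 pairs at the 3′ end had a median of -0.56, and 8 were below 0, the exception being C8a at 0.27. The 20 pairs between the ends had a median of 0.05, with 10 above 0. Those above 0 include the pairs of Fetub, Ambp and F7 that lay at a RefSeq start. Where peaks that cover an end also counted there, an alternative chosen after seeing the data, 20 of 21 5′ pairs were above the median ratio. Over all genes the medians were 0.82 at the 5′ end, where 85.7% of 1361 pairs were above 0, -0.19 at the 3′ end, where 40.9% of 1032 pairs were above 0, and -0.13 between the ends over 7242 pairs. The plasma protein genes thus had 5′ ratios near those of all genes and lower 3′ ratios.

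**Figure D2:**
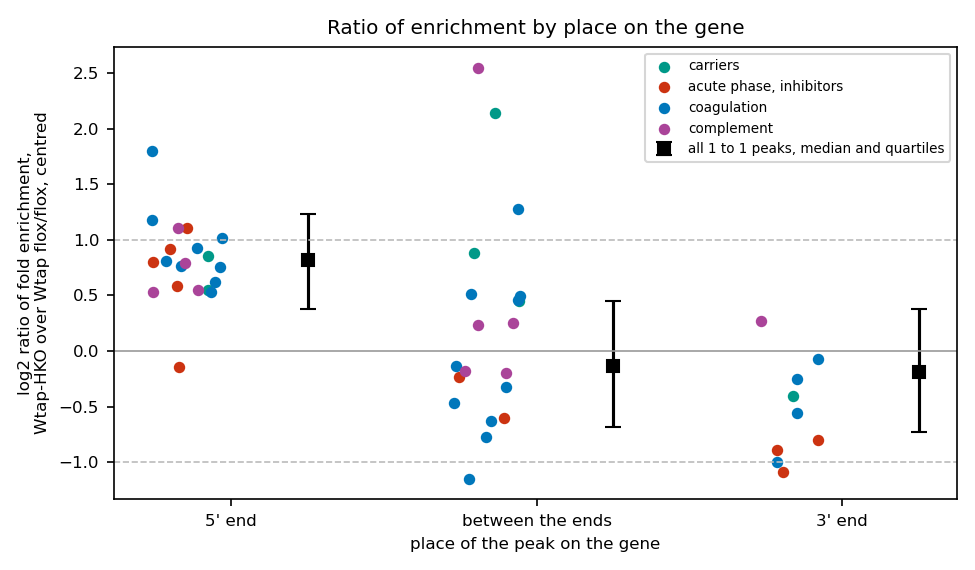
Log2 ratio of fold enrichment, Wtap-HKO over Wtap flox/flox and relative to the median of all 10499 pairs (vertical axis), for the 49 pairs of the plasma protein genes by place on the gene (horizontal axis). Points are single pairs, coloured by role and spread sideways for sight. Black squares and bars are the median and quartiles of all pairs, and dashed lines mark a 2-fold difference. At the 5′ end 19 of 20 points lie above 0, and at the 3′ end 8 of 9 lie below.

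Past a 2-fold difference, 8 of the 49 pairs were higher in Wtap-HKO, against 14.7% of all pairs, and 2 were lower, against 12.7% of all pairs. Of the 8, 5 lay at the 5′ end, where 5 of 20 pairs passed (25%) against 37.9% of all 5′ pairs. At the 3′ end 1 of 9 pairs was lower past 2-fold, against 14.7% of all 3′ pairs. The counts past the limit were therefore close to or below those of all genes. At the limit itself, the 5′ peak of Fgg was just inside with a log2 ratio of 1.02, and the 5′ peak of Pros1 was just outside with 0.93. On the lower side the 3′ peak of Hp was just inside with -1.09 and that of Fga just outside with -0.996.

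**Figure D3:**
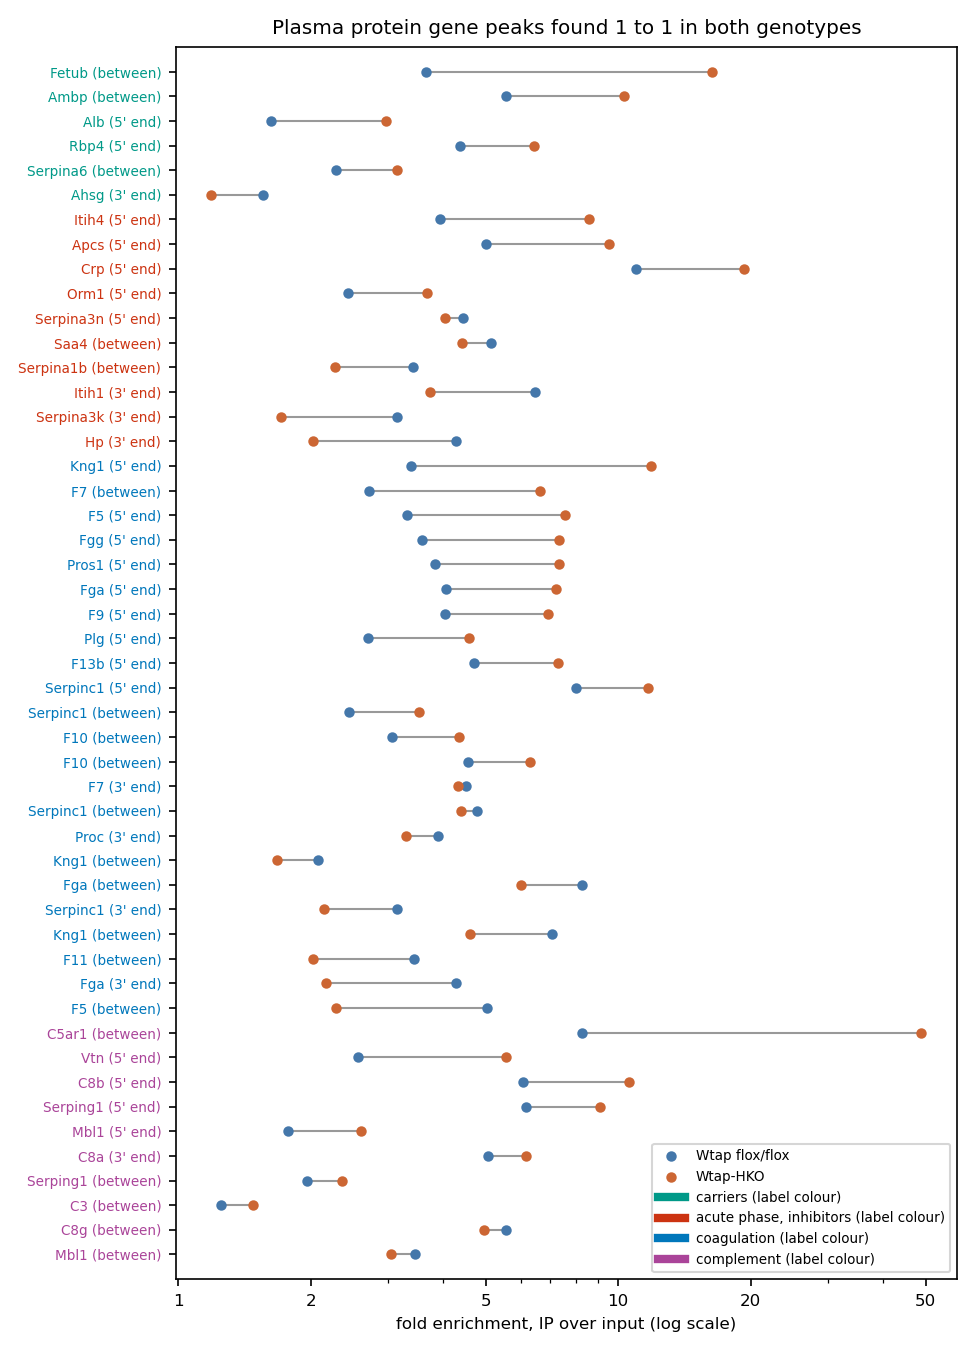
Fold enrichment of IP over input (horizontal axis, log scale) in Wtap flox/flox and Wtap-HKO for the 49 peaks found 1 to 1 in both lists. Each line is 1 peak with its gene and place, label colours give the role, and lines are ordered by ratio within each role. The widest gaps are those of C5ar1 (8.28 and 48.9), Fetub (3.66 and 16.3) and the 5′ peak of Kng1 (3.39 and 11.9).

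Among the carriers, 5 of 6 pairs were above 0, with the higher value in Wtap-HKO. Fetub, which encodes fetuin-B, was enriched 3.66-fold in controls and 16.3-fold in Wtap-HKO, a log2 ratio of 2.14, at the start inside the gene shown above. Albumin (Alb), the main protein of plasma, had a single weak peak at its 5′ end, at 1.63 in controls and 2.97 in Wtap-HKO (log2 ratio 0.85). The albumin transcript thus had no 3′ peak in either list. Ambp, the precursor of alpha-1-microglobulin and bikunin, was at 5.56 and 10.3 (0.88), and the retinol binding protein Rbp4 was at 4.37 and 6.44 (0.55). The corticosteroid binding globulin gene Serpina6 was at 2.28 and 3.15 (0.45).

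The only carrier pair below 0 was at a 3′ end. Ahsg, which encodes fetuin-A, had a 3′ peak of 1.56 in controls and 1.19 in Wtap-HKO (log2 ratio -0.40), both among the lowest values of their lists. Transthyretin (Ttr), a carrier of thyroxine, had a peak of 6.18 in Wtap-HKO only, 1100 nt from the 5′ end.

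The acute phase proteins and inhibitors, whose levels in plasma move with inflammation, had their values divided by place. Of 10 pairs, 4 were above 0, all at the 5′ end. Itih4, of the inter-alpha-trypsin inhibitor family, had a 5′ peak of 3.94 in controls and 8.58 in Wtap-HKO (log2 ratio 1.11). The pentraxin genes Apcs, at 5 and 9.52 (0.92), and Crp, at 11 and 19.3 (0.80), were also higher in Wtap-HKO, as was Orm1, at 2.43 and 3.67 (0.58). Not all 5′ peaks of the group were higher. The remaining 5′ pair, that of Serpina3n, was at 4.43 and 4.04 (-0.15). The 5′ peak of Serpina3k, at 4.53 in controls, met 2 peaks in Wtap-HKO with a mean of 3.70 weighted by exonic length (-0.30). The peak of Crp reached the 5′ end in Wtap-HKO, 1 nt from it, but began 362 nt from it in Wtap flox/flox. A further peak named Crp in Wtap flox/flox, at 9.37, lay 131538 nt beyond the RefSeq span of the gene and was counted as between the ends.

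All 3 of the 3′ pairs of the acute phase group were lower in Wtap-HKO. Haptoglobin (Hp), which captures free hemoglobin, had a 3′ peak of 4.27 in controls and 2.03 in Wtap-HKO (log2 ratio -1.09). That peak covered 714 exonic nt in controls and 298 nt in Wtap-HKO, and a 5′ peak at 3.05 was listed in Wtap-HKO only. Itih1 was at 6.46 and 3.74 (-0.80), and Serpina3k at 3.15 and 1.71 (-0.89). Between the ends, Serpina1b, an alpha-1-antitrypsin gene, was at 3.41 and 2.27 (-0.60) and the constitutive serum amyloid Saa4 at 5.15 and 4.41 (-0.24). Close copies can share reads in this group, so some values are uncertain as to the gene. These are the values of Serpina1b, of Orm1 and Orm2, and of Serpina3k and Serpina3n. They also include Saa1, with a peak of 1.74 in Wtap flox/flox only, and Saa2, with peaks of 5.47 and 2.97 in Wtap-HKO only.

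The coagulation genes had the most pairs, 23, of which 13 were above 0. All 9 of their 5′ pairs were above 0 and all 4 of their 3′ pairs were below. High molecular weight kininogen and bradykinin come from Kng1, whose 5′ peak was at 3.39 in controls and 11.9 in Wtap-HKO (log2 ratio 1.80). The clotting cofactor F5 had a 5′ peak of 3.32 and 7.56 (1.17), and F7, the protease that starts clotting with tissue factor, had a peak of 2.71 and 6.64 (1.28) at the start inside the gene shown above. Protein S (Pros1) was at 3.83 and 7.34 (0.93), F9 at 4.05 and 6.93 (0.76), plasminogen (Plg) at 2.70 and 4.59 (0.75) and F13b at 4.71 and 7.30 (0.62). These 5′ values lay between a log2 ratio of 0.53, for Serpinc1, and 1.80.

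Away from the 5′ end, most coagulation pairs were lower in Wtap-HKO. The peak inside F5, at 59% of the span, was at 5.03 in controls and 2.29 in Wtap-HKO (log2 ratio -1.15), the lowest of the 49 pairs. F11, a protease of the contact pathway, was at 3.44 and 2.03 (-0.77) between the ends, beside its 5′ peak of 6.13 in Wtap-HKO only. Protein C (Proc) at 3.89 and 3.29 (-0.25) and F7 at 4.50 and 4.32 (-0.07) had 3′ peaks with small differences. F10 was mixed. Its pair at 98% of the span was at 4.55 and 6.31 (0.46) and its pair near the start at 3.06 and 4.35 (0.49), but its peak of 2.28 at 94% of the span in controls met 2 peaks in Wtap-HKO with a mean of 1.45 weighted by exonic length (-0.66), and its 3′ peak was listed in controls only. Heparin cofactor II (Serpind1) had 1 peak of 6.92 in Wtap flox/flox that met 2 in Wtap-HKO, with a mean of 3.12 weighted by exonic length (log2 ratio -1.16).

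The 3 fibrinogen chains, which assemble into 1 protein, had different peaks. Fga had 3 peaks in each genotype, at 4.07, 8.26 and 4.29 from the 5′ to the 3′ side in Wtap flox/flox and at 7.21, 6.03 and 2.17 in Wtap-HKO. The log2 ratio thus went from 0.81 to -0.47 to -0.996 along the gene. Fgg had only a 5′ peak, at 3.58 and 7.32 (1.02). Fgb had only a 3′ peak, at 1.73 in Wtap flox/flox, and none in Wtap-HKO.

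**Figure D4:**
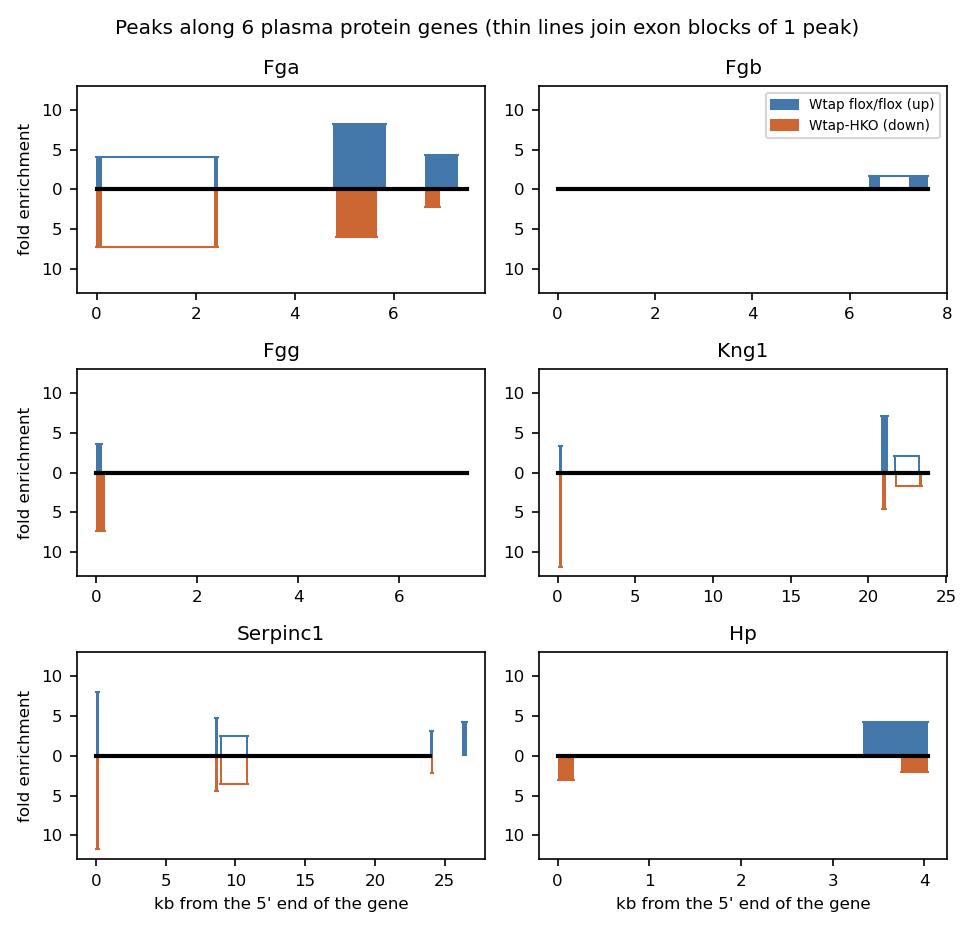
Peaks along Fga, Fgb, Fgg, Kng1, Serpinc1 and Hp, with the distance from the 5′ end of the gene in kb (horizontal axis) and fold enrichment (vertical axis), drawn upward for Wtap flox/flox and downward for Wtap-HKO. Filled bars are exon blocks, with the narrowest widened to be visible, thin lines join the blocks of 1 peak, and the black line is the gene span. Downward bars exceed upward bars at the 5′ end of Fga, Fgg, Kng1 and Serpinc1, and Fgb has an upward bar only.

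Among the complement genes, 8 of 10 pairs were above 0. The largest ratio of all 49 was that of C5ar1, at 8.28 in controls and 48.9 in Wtap-HKO (log2 ratio 2.55), at 90% of the span. The pair set a control peak of 150 nt against a Wtap-HKO peak of 897 nt, and it was lost where at least 50% of the exonic bases of both peaks had to be shared, which left 7 pairs higher past 2-fold. C5ar1 encodes the receptor of the C5a fragment and is known mainly from myeloid cells rather than as a secreted hepatocyte protein. Further peaks of C5ar1, at 35.2 and 4.46, were listed in Wtap-HKO only. Beside it, the Kupffer cell and leukocyte markers had 7 peaks in controls and 14 in Wtap-HKO, Cd68, Ptprc and Lyz2 had peaks in Wtap-HKO only, Adgre1 had none, and none of their 7 pairs was past 2-fold in either direction. Their part in the value of C5ar1 was not tested. Without C5ar1, 7 pairs past 2-fold higher were left, all of genes for secreted proteins.

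The other complement pairs above 0 were mostly at the 5′ end. Vitronectin (Vtn), which inhibits the membrane attack complex, was at 2.56 and 5.56 (log2 ratio 1.11), and C8b, a chain of that complex, at 6.09 and 10.6 (0.79). The C1 inhibitor gene Serping1 was at 6.17 and 9.08 (0.54) and the mannose binding lectin Mbl1 at 1.78 and 2.60 (0.53). Away from its 5′ end, Mbl1 was lower in Wtap-HKO. Its highest control peak, 6.11 at 59% of the span, met 2 peaks in Wtap-HKO. Their mean weighted by exonic length was 2.86 (log2 ratio -1.10). The Mbl1 pair between the ends was at 3.46 and 3.04 (-0.20). The 2 other chains of C8 differed less, C8a with 5.06 and 6.16 (0.27) at the 3′ end and C8g with 5.57 and 4.95 (-0.18). C3, the central component of complement, had a peak of 1.25 in controls and 1.48 in Wtap-HKO (0.23), so that the transcript was barely enriched over input in either list.

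Complement also held the most genes listed in 1 genotype only, but its shares were not set apart from those of all genes with a peak. Of its 14 genes with a peak, 2 were listed in Wtap flox/flox only (14.3%, Wilson interval 4.01 to 39.9), against 7.99%. In Wtap-HKO only, 4 were listed (28.6%, interval 11.7 to 54.6), against 22.0%. Both intervals included the share of all genes. C9 at 8.72, Cfi at 5.32 and Cfb at 4.59, which encode a pore-forming component, an inhibitory protease and the protease of the alternative pathway, had a 5′ peak in Wtap-HKO only. C4b had a weak peak of 1.49 in Wtap-HKO only, 241 nt from the 3′ end. C2, at 1.92, and Mbl2, at 1.36, had a peak in Wtap flox/flox only. The weak peaks of C4b, C2 and Mbl2 were thus low in their lists, and those of C9, Cfi and Cfb stood higher.

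Within a gene, the 5′ end could be compared with the rest of the gene, free of differences between genes. A 5′ pair and another pair were present in 6 genes, Serpinc1, Fga, F5, Kng1, Serping1 and Mbl1, giving 10 comparisons that share the 5′ pair within a gene. Only Serpinc1 and Fga had a 3′ pair among these, and all the other comparisons were with pairs between the ends. The log2 ratio was higher at the 5′ end in all 10, against 82.9% of 959 comparisons in 696 genes. The difference was 2.43 and 2.12 in Kng1, 2.32 in F5 and 1.28 and 1.81 in Fga, and it was 0.73 in Mbl1 and 0.29 in Serping1. In antithrombin (Serpinc1) it was 1.09 against the 3′ peak, 0.67 against a peak at 36% of the span and 0.01 against a peak at 41%. The neighbouring peaks of Serpinc1 thus had ratios of -0.14 and 0.52, on either side of 0.

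**Figure D5:**
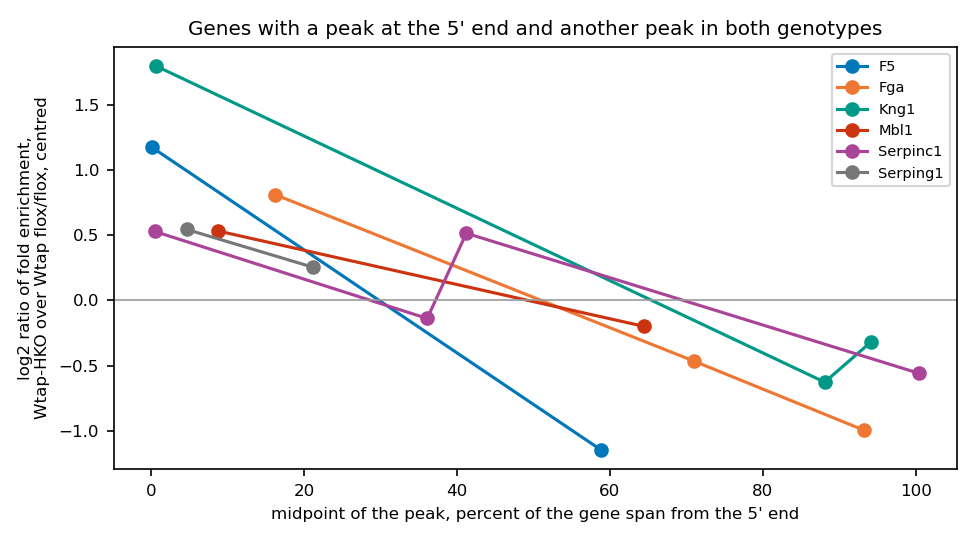
Log2 ratio of fold enrichment, Wtap-HKO over Wtap flox/flox (vertical axis), against the midpoint of the Wtap flox/flox peak in percent of the gene span from the 5′ end (horizontal axis), for the 6 genes with a 5′ pair and another pair. Lines join the pairs of 1 gene. In each gene the leftmost point is the highest, with the second high point of Serpinc1 only 0.01 below it.

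A separate deposited list holds peaks called as different between the genotypes. In it stood 49 rows of 36 plasma protein genes. That was 69.2% of the 52 genes with a peak, against 27.8% of all genes with a peak. Among genes with peaks in both genotypes it was 29 of 40 (72.5%), against 33.6%. By role, 6 of 7 carriers, 15 of 18 coagulation genes, 8 of 14 complement genes and 7 of 13 acute phase genes with a peak had a row. C5ar1 had none, although its ratio was the largest. The lists hold no read counts, so transcript levels could not be set beside these shares.

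The listed rows were divided by place in the same way. Of 22 rows at the 5′ end, 16 covered peaks with a log2 ratio above 0 and 3 below, and 3 covered a peak of Wtap-HKO only. As shares these were 72.7%, 13.6% and 13.6%, against 52.6%, 6.33% and 38.9% of the 679 listed 5′ rows of all genes. Of 9 rows at the 3′ end, 5 covered peaks with a ratio below 0, none above, and 4 covered a peak of Wtap flox/flox only. Over all 502 listed 3′ rows, 55.0% were below 0, 16.1% above and 22.9% over a control peak only. Of 18 rows between the ends, 4 were above and 8 below 0, 5 covered a Wtap flox/flox peak only and 1 a Wtap-HKO peak only, and over all 2371 such rows 16.7% were above and 49.9% below 0. The 5 rows between the ends over a control peak only included those of the coagulation genes Klkb1, at 2.85, and Serpinf2, at 2.89. The 3 listed 5′ rows below 0 were those of Serpina3k, Serpina3n and Serpind1.

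Plasma protein peaks crossed exon junctions more often than others. In Wtap flox/flox 21 of 72 peaks joined exons (29.2%, against 14.5% of all peaks), and in Wtap-HKO 32 of 75 did (42.7%, against 19.2%). Of the 30 5′ peaks in Wtap-HKO, 18 joined exons (60%), as in Fga and Itih4, against 37.6% of all 5′ peaks in that list. In controls 9 of 19 5′ peaks did (47.4%), against 33.3%. For the 3′ peaks these counts were 1 of 17 in controls and 0 of 8 in Wtap-HKO, a count that allows a share of up to 32.4% by the Wilson interval, against 7.36% and 8.48% of all 3′ peaks.

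A further 62 genes of the same pathways were set beside the group, such as the complement proteins C1ra, C1s1 and Clu and the coagulation proteins F8 and Hrg. Of these 62, 42 had a peak in controls and 49 in Wtap-HKO. They held 54 pairs, of which 12 were higher past 2-fold, against 14.7% of all pairs, and 9 lower, against 12.7%. Of their 17 5′ pairs 15 were above 0, against 85.7% of all 5′ pairs. The exceptions were Serpina10, at 8.31 and 3.41 (log2 ratio -1.30), and Hrg, at 3.48 and 3.11 (-0.17). Clusterin (Clu) had the highest ratio of the 17 5′ pairs, at 5.27 and 15.8 (1.57).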

How the data were processed

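The members and lists were chosen with earlier results of these data known. Libraries of poly(A)+ RNA were read as 150 bp pairs. Per the submitters' processing notes, fastp 0.19.11, BWA 0.7.12 and HOMER 4.9.1 were used with GRCm38, and the study's methods name exomePeak for peak calling. The deposited lists, 1 for each genotype and 1 of differential peaks, hold for each peak its exon blocks, the fold enrichment (a ratio of IP over input) and the log10 false discovery rate (a score) from the authors. The 3 columns of the authors' own comparison hold their log2 fold change, p-value and false discovery rate between genotypes and were not used. No column of another sample was left out (0). Depth is unknown.

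Genes were matched by the name column and gene ends taken from RefSeq spans (GRCm38.p6), which placed 90.5% of Wtap flox/flox and 90.4% of Wtap-HKO peaks. Peaks counted as shared from 1 common exonic base upward, strand by strand. A pair is a peak that overlaps exactly 1 peak of the other list. Log2 ratios were centred on the median of 10499 pairs, with a 2-fold limit. Counts were set beside those of all peaks or genes, with 95% Wilson intervals and no p-values. Genes named are those with a peak in 1 genotype only or a row in the differential list, the 5 highest and 5 lowest ratios, genes with peaks at both ends, the 5 with most peaks, Alb, Hp, C3, Fga, Fgb, Fgg, C5ar1, close copies, genes with no peak and Wtap, and other genes were named after their values were seen. Alternatives were another overlap, limit, end distance, centring, false discovery rate (1e-05) or minimum enrichment. The overlap and distance steps were tested on simulated data. Python 3.11.15, pandas 2.3.3, numpy 2.4.6, scipy 1.17.1 and matplotlib 3.10.9 were used.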

Additional observations from a re-analysis of the deposited data

How the results depend on the processing

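No paired analysis was possible because the deposited lists combine the replicates of each genotype, and for the same reason no replicate could be left out. The number of plasma protein pairs higher in Wtap-HKO was 8 as reported and 18 at a limit of 1.5-fold. The number lower was 2 as reported, 8 at 1.5-fold, 1 where at least 50% of the exonic bases had to be shared, 5 where a shift of over 25 percentile ranks was asked for and 4 over all groups of overlapping peaks, an alternative chosen after seeing the data. Where the 3′ end was taken as the outer 10% of the span, 26 control peaks and 16 of Wtap-HKO lay there, against 17 and 8 as reported, since this window is wider in long genes. By the same rule 100% of the 5′ pairs, 17 of 17, were above the median ratio, against 19 of 20 as reported. By the same rule the comparison with all peaks turned at the 3′ end: the share of plasma protein peaks there was 13.5 percentage points above that of all peaks in controls and 2.38 above in Wtap-HKO as reported, and stood at -6.30 and -14.5 points in the outer 10%. At the 5′ end, and within 100 or 500 nt or on spans over 5000 nt at either end, it was above that of all peaks in both genotypes. No ratio of a single pair past 2-fold changed sign without centring or, where the pair was left, with an overlap of 50%. The 5′ pairs above the median were 16 of 17 within 100 nt and 21 of 23 within 500 nt of the end, and the 3′ pairs below it 6 of 7 and 9 of 11. The ratios of single pairs kept their side of the limit without centring in 49 of 49 pairs and, in the 42 pairs left, with an overlap of 50%. The cause of the smaller and larger counts of lower pairs was not tested. With fold enrichments near 1 and no read counts, small differences could not be weighed.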
